A study of Homo sapiens with 9 samples.

Results

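ISG15 conjugation was followed through 5 probes for 4 genes, out of 47317 probes on each array: ISG15 (ILMN_2054019), UBE2L6 (ILMN_1769520 and ILMN_1703108), HERC5 (ILMN_1729749) and HERC6 (ILMN_1654639). The probes were chosen by probe number, with values of these arrays known, so their levels are described here and not tested. The gene of each probe came with that choice, because the deposited files hold probe numbers without gene names. All 9 groups were KYSE30, an established cell line of human esophageal squamous cell carcinoma, transfected with Lipofectamin2000 and harvested 3 days later for Illumina expression arrays. The transfected RNAs were miR-32, miR-455, miR-181a, miR-181b, a miRNA combination, siPIK3R1, siPIK3R3, an siRNA combination and a negative control. The siRNAs are named for PIK3R1 and PIK3R3, genes of regulatory subunits of the lipid kinase PI3K, which acts downstream of growth factor receptors. The study asked how expression changes when these microRNAs are raised or PI3K is knocked down. The labels name no dose, no make-up of the combinations and no kind of negative control. Every group is a single array of 1 cell line, so no value has a replicate error and no p-value is given for any difference. Squamous cell markers and the siRNA targets PIK3R1 and PIK3R3 were not analysed here, since their probes carry no gene names.

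ISG15 is a small ubiquitin-like protein of tandem ubiquitin-like domains that cells make in quantity after exposure to interferon. It is joined to lysines of other proteins by an enzyme cascade: UBA7 activates it, UBE2L6 (also called UBCH8) carries it as the conjugating enzyme, and the ligase HERC5 transfers it, largely onto newly made proteins. USP18 removes it again. HERC6 is a close relative of HERC5, and in the mouse, which lacks a Herc5 gene, Herc6 is the main ligase for ISG15. All 4 genes are known as interferon-stimulated genes. UBA7, USP18 and the ubiquitin, NEDD8 and SUMO systems were not analysed here, for want of gene names on their probes.

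The searched start regions of the 4 genes differ in exact matches to a motif of interferon response. The interferon-stimulated response element (ISRE) is a promoter element through which type I interferon acts on its target genes, and a 9-letter core of it was searched as GAAANNGAA on both strands. The searched windows ran from 250 bases before to 50 bases after each start in RefSeq (build GRCh38.p14), and all 4 symbols matched. The ISG15 window (chr1:1013247-1013546, plus strand) and the HERC5 window (chr4:88456869-88457168, plus strand) are shown because they held matches, which are in capitals.
ISG15: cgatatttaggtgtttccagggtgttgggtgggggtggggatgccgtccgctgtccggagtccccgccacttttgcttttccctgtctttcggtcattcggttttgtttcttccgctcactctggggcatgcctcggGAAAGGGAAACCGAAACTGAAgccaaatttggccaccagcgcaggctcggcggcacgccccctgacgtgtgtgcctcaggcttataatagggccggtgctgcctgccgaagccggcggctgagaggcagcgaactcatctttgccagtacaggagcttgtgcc
HERC5: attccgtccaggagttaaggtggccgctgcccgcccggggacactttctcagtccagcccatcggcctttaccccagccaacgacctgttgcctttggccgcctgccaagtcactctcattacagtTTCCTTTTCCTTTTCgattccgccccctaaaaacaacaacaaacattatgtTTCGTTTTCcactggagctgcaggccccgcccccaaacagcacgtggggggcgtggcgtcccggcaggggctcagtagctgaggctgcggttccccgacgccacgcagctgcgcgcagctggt
In ISG15, 3 overlapping matches begin at positions -113, -107 and -101 relative to the start and form a run of 21 bases. In HERC5, 2 overlapping matches on the opposite strand begin at -124 and -118 in a run of 15 bases, and another begins at -73. Of 35116 such windows in the RefSeq table, 8.11% held at least 1 match and 0.701% held 2 or more, overlapping ones included. The motif was chosen with the windows in view, so these shares are a description and not a test. Neither the HERC6 window (chr4:88378602-88378901, plus strand) nor the 2 UBE2L6 windows (chr11:57567886-57568185 and chr11:57567623-57567922, minus strand) held a match. A further motif, TTCNNNGAA, had 0 matches in each window of the 4 genes, where 7.66% of all windows held at least 1. Only exact matches inside these windows were looked for, so looser or more distant sites were not searched. HERC6 and HERC5 lie beside each other on chromosome 4, with 1 other annotated gene, which does not code for protein, between them.

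All 5 probes were detected on all 9 arrays. Their detection p, which sets a signal against the background of its array, was listed as 0 in every case, below the smallest step of 0.0013. Mean raw signal over all probes ranged from 223 to 468 and was lowest on the siRNA combination (223) and miRNA combination (270) arrays. Comparisons therefore use background-corrected, quantile-normalized log2 values.

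ISG15, the modifier itself, was bright on every array. Its raw signal was 15828 with miR-32, 13300 with miR-455, 3136 with miR-181a, 15529 with miR-181b, 8713 with the miRNA combination, 15801 with siPIK3R1, 22202 with siPIK3R3 and 15436 with the siRNA combination, against 4867 with the negative control. The miR-181a array was thus the one below the control, and the other 7 were above it. After normalization the log2 levels were 13.60, 13.30, 11.39, 13.97, 13.60, 14.04, 14.41 and 14.35 in the same order, against 12.07 with the control. The levels in siPIK3R3 and the siRNA combination lay 0.17 and 0.23 below the highest value of any probe. Normalization fixes that value at 14.58 on every array, so little room was left above them.

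UBE2L6, the conjugating enzyme, was measured by a bright and a dim probe. The bright probe ILMN_1769520 had raw signals of 4111 with miR-32, 3660 with miR-455, 1432 with miR-181a, 5316 with miR-181b, 3942 with the miRNA combination, 5421 with siPIK3R1, 8507 with siPIK3R3 and 6304 with the siRNA combination, against 1832 with the negative control. Again only miR-181a was below the control. The dim probe ILMN_1703108 read 469 with miR-32, 512 with miR-455, 265 with miR-181a, 546 with miR-181b, 310 with the miRNA combination, 401 with siPIK3R1, 1019 with siPIK3R3 and 515 with the siRNA combination, against 257 with the negative control. This probe placed miR-181a level with the control, and its arrays spanned a narrower range, 5.23-fold after normalization against 9.21-fold for the bright probe.

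HERC5, the ligase, had raw signals of 2990 with miR-32, 2380 with miR-455, 1020 with miR-181a, 3210 with miR-181b, 2821 with the miRNA combination, 3376 with siPIK3R1, 4312 with siPIK3R3 and 3930 with the siRNA combination, against 927 with the negative control. Here miR-181a was slightly above the control, and the other 7 arrays were all more than 2-fold above it. HERC6 had raw signals of 1790 with miR-32, 1884 with miR-455, 397 with miR-181a, 1091 with miR-181b, 1147 with the miRNA combination, 1146 with siPIK3R1, 3331 with siPIK3R3 and 1498 with the siRNA combination, against 518 with the negative control. In these raw signals the siPIK3R3 array stood apart at the top, and miR-455 and miR-32 were next. After normalization the siRNA combination, at 11.29, came next to siPIK3R3, at 11.54. The miRNA combination followed at 10.57, ahead of miR-455 at 10.43 and miR-32 at 10.42. The normalized range over arrays was 10.5-fold for HERC6 and 8.33-fold for HERC5.

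**Figure D1:**
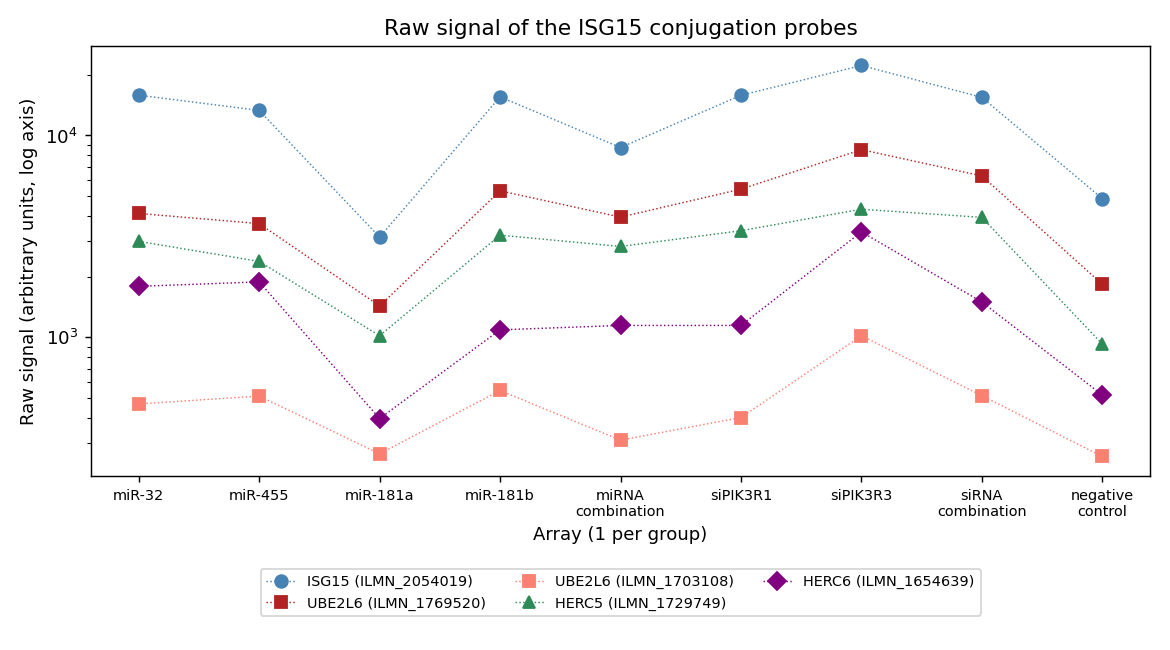
Raw signal (log axis, arbitrary units) of each of the 5 probes on the 9 arrays, 1 point per array, with the negative control at the right. Each probe dips at miR-181a and at the negative control, and the other 7 arrays lie above both; HERC6 peaks at siPIK3R3 with 3331.

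For every one of the 5 probes, the lowest of the other 7 transfections was above both miR-181a and the negative control after normalization. The gap was 1.23 on the log2 scale for ISG15, 0.78 and 0.84 for the UBE2L6 probes ILMN_1769520 and ILMN_1703108, 1.10 for HERC5 and 1.36 for HERC6. Among the 7, the order differed by gene. ISG15 and HERC6 were highest in siPIK3R3, at 14.41 and 11.54, with the siRNA combination next at 14.35 and 11.29. The dim UBE2L6 probe was also highest with siPIK3R3, at 9.82. HERC5 and the bright UBE2L6 probe were highest in the siRNA combination, at 12.69 and 13.43. The lowest of the 7 was miR-455 for ISG15, HERC5 and the bright UBE2L6 probe, miR-32 for the dim UBE2L6 probe and miR-181b for HERC6. With median scaling the lowest array changed for ISG15 and the dim UBE2L6 probe. ISG15 was then lowest with the miRNA combination, 1.26 above the control against 1.39 for miR-455. The dim probe was lowest with siPIK3R1, at 0.78 against 1.17 for miR-32. With 1 array per group, neighbours in these orders cannot be separated from the spread between cultures.

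The transfections of single microRNAs other than miR-181a were compared with the negative control first. With miR-32, 3 of 5 probes reached a 2-fold higher level, as did 0.505% of all probes compared. The differences on the log2 scale were 1.53 for ISG15, 1.54 for HERC5 and 1.72 for HERC6, while UBE2L6 differed by 0.97 and 0.84, just under 2-fold. With miR-455, 3 of 5 reached 2-fold, against 0.596% of all probes. ISG15 differed by 1.23, HERC5 by 1.16 and HERC6 by 1.72, and the UBE2L6 probes by 0.78 and 0.91. HERC6 was thus the member farthest from the control in both, at 3.29-fold in miR-32 and 3.30-fold in miR-455. At 1.5-fold all 5 probes were higher with miR-32 and with miR-455, against 2.27% and 2.52% of all probes, and with median scaling all 5 were past 2-fold with miR-32, against 1.39%. With miR-181b, 5 of 5 reached 2-fold, against 1.95% of all probes. There the order turned, with HERC5 highest at 4.30-fold, ISG15 at 3.73-fold, UBE2L6 at 3.47-fold and 2.88-fold, and HERC6 lowest at 2.56-fold. All 8 comparisons use the same negative control array, so they share its error.

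The miR-181a transfection had 0 of 5 probes at least 2-fold higher, where 0.284% of all probes were, and 0 of 5 at least 2-fold lower, where 0.529% were. ISG15 differed from the control by -0.69, the bright UBE2L6 probe by -0.43 and HERC6 by -0.56. The dim UBE2L6 probe and HERC5 differed by -0.02 and 0.06. Of all probes compared, 97.6% had a higher difference than ISG15, 95.5% than HERC6 and 43.0% than HERC5. HERC5 therefore sat near the middle of all probes while ISG15 and HERC6 sat in the low tail.

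The miR-181 pair is shown by sequence because the 2 microRNAs share their seed, bases 2 to 8, given in capitals. The mature sequences are those of the 5p arm in RefSeq (build GRCh38.p14), and the labels do not name the arm that was transfected.
miR-181a-5p: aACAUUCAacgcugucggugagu
miR-181b-5p: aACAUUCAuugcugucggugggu
Over 23 bases they differ at 3, which are A9U, C10U and A21G, with the miR-181a base first and positions counted from the 5′ end. The level with miR-181b was at least 2-fold above that with miR-181a for 5 of 5 probes, and for 3.16% of all probes. The difference was 2.59 for ISG15, 2.23 and 1.55 for UBE2L6, 2.05 for HERC5 and 1.91 for HERC6. This comparison does not use the control array.

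With siPIK3R1, 5 of 5 probes stood at least 2-fold above the negative control, against 2.97% of all probes. HERC5 was 4.78-fold higher, ISG15 3.90-fold, UBE2L6 3.78-fold by the bright and 2.23-fold by the dim probe, and HERC6 2.92-fold. The dim probe, at a log2 difference of 1.15, was under 2-fold without background correction (0.89) and with median scaling (0.78). With siPIK3R3, 5 of 5 did so, against 3.53% of all probes. HERC6 was 7.14-fold higher, and the other members lay close together, at 5.06-fold for ISG15, 4.99-fold for HERC5, and 4.82-fold and 5.14-fold for UBE2L6. Set directly against siPIK3R1, siPIK3R3 had 2 of 5 probes at least 2-fold higher, against 5.84% of all probes. These were HERC6, with a difference of 1.29, and the dim UBE2L6 probe, with 1.21. ISG15 differed by 0.37, the bright UBE2L6 probe by 0.35 and HERC5 by 0.06. The 2 UBE2L6 probes thus disagreed on the size of this difference, and median scaling gave 1.68 for the dim and 0.80 for the bright probe.

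The miRNA combination had 5 of 5 probes at least 2-fold above the negative control, against 4.32% of all probes. HERC5 was 4.84-fold higher, HERC6 3.63-fold, UBE2L6 3.39-fold and 2.10-fold, and ISG15 2.89-fold. The dim UBE2L6 probe, at a log2 difference of 1.07, was under 2-fold without background correction (0.82), with an offset of 50 (0.94) and with median scaling (0.89). Against miR-181b, the single microRNA with the most members past 2-fold, the combination had 0 of 5 probes at least 2-fold higher, where 0.964% of all probes were, and 0 of 5 lower, where 1.29% were. HERC6 was 0.50 higher and HERC5 0.17 higher, while ISG15 differed by -0.37 and UBE2L6 by -0.03 and -0.45. Against miR-181a, by contrast, all 5 probes were at least 2-fold higher, against 5.25% of all probes, with differences of 1.10 to 2.42. The lowest was again the dim UBE2L6 probe, which missed 2-fold at 0.84 without background correction, 0.97 with an offset of 50 and 0.86 with median scaling.

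The siRNA combination likewise had 5 of 5 probes at least 2-fold above the negative control, against 6.53% of all probes. HERC5 was 8.33-fold higher, UBE2L6 6.82-fold and 4.79-fold, HERC6 6.0-fold and ISG15 4.85-fold. ISG15 was close to the fixed top value here, and its log2 difference of 2.28 was 2.62 in the authors' processed values. The HERC5 value was the highest fold of any member in any transfection under the main normalization. In the authors' processed values it also stood above HERC6 with siPIK3R3, at 3.13 against 2.94 on the log2 scale. HERC6 with siPIK3R3 was higher with median scaling, at 2.98 against 2.73, and in raw signals, at 2.68 against 2.08. Against siPIK3R1 the combination had 2 of 5 probes at least 2-fold higher, the dim UBE2L6 probe by 1.11 and HERC6 by 1.04, where 3.29% of all probes were. The dim UBE2L6 probe was at 0.97 without background correction. In raw signals both calls were lost, at 0.36 for the dim UBE2L6 probe and 0.39 for HERC6. Against siPIK3R3 it had 0 of 5 probes past 2-fold in either direction, where 4.78% of all probes were higher and 6.37% lower. HERC5 differed by 0.74 and the bright UBE2L6 probe by 0.50, and HERC6 by -0.25, the dim UBE2L6 probe by -0.10 and ISG15 by -0.06. Median scaling moved these to 0.31, 0.00, -0.73, -0.57 and -0.09, and in raw signals HERC5 and the bright UBE2L6 probe turned to -0.13 and -0.43. ISG15 turned to 0.37 in the authors' processed values. The directions of ISG15, HERC5 and the bright UBE2L6 probe in this comparison, and with them the order of the top arrays, therefore rest on the normalization. Against the miRNA combination, 2 of 5 probes were at least 2-fold higher, both for UBE2L6, against 1.78% of all probes, and all 5 were higher, by 0.73 to 1.19. Both UBE2L6 calls were lost with median scaling, at 0.83 for the bright and 0.99 for the dim probe. They were also lost in raw signals, at 0.68 and 0.73. ISG15 passed 2-fold in the authors' processed values, at 1.14.

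**Figure D2:**
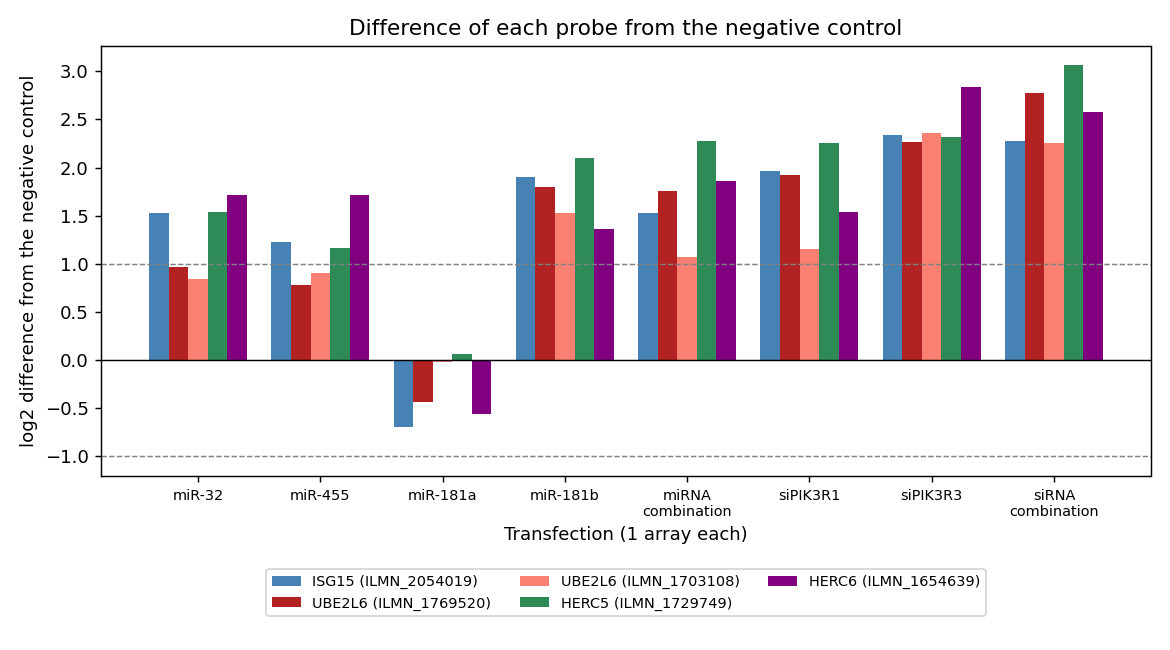
Log2 difference of each probe from the negative control in the 8 transfections, 1 bar per probe and array, with dashed lines at 2-fold. Bars of miR-181a lie between -0.69 and 0.06, those of the siRNA combination between 2.26 and 3.06.

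Across transfections the median difference of the 5 probes was 1.53 with miR-32, 1.16 with miR-455, -0.43 with miR-181a, 1.80 with miR-181b, 1.76 with the miRNA combination, 1.92 with siPIK3R1, 2.34 with siPIK3R3 and 2.58 with the siRNA combination. The median over all probes compared was between -0.03 and 0.01 in each. The order of the member medians rests in part on the normalization. With median scaling, ISG15, HERC5 and HERC6 were higher with miR-32 (1.80, 1.85 and 2.01) than with miR-181b (1.63, 1.81 and 1.12). Both UBE2L6 probes stayed lower with miR-32. HERC6 was then at 2.98 with siPIK3R3 and 2.25 with the siRNA combination, while HERC5 was at 2.43 and 2.73. In miR-32, 26 of 16449 probes were farther above the control than HERC6, and in siPIK3R1, 35 of 15985 were farther than HERC5. In siPIK3R3, 76 of 15918 were farther than HERC6. These were the farthest members, and others stood lower. The dim UBE2L6 probe had 120 probes farther in miR-32, 278 in siPIK3R1 and 577 of 16555 in the miRNA combination. The bright UBE2L6 probe had 123 in siPIK3R3.

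For these 5 probes the negative control itself lay far below the middle of the series. With the median of its 8 fellow arrays taken as the reference, 5 of 5 probes were at least 2-fold lower with miR-181a, where 1.28% of all probes were, with differences of -2.40 for ISG15, -2.21 and -1.14 for UBE2L6, -2.12 for HERC5 and -2.28 for HERC6. The same held for the negative control, with 5 of 5 probes lower against 1.08% of all probes and differences of -1.71, -1.78, -1.11, -2.18 and -1.72 in that order. Above that median at 2-fold were 2 of 5 probes with siPIK3R3, against 2.85% of all probes, and 3 of 5 with the siRNA combination, against 4.78%. The 3 were both UBE2L6 probes and HERC5, and the 2 with siPIK3R3 were HERC6 and the dim UBE2L6 probe. No member was at least 2-fold higher than that median on any other array. On the other transfected arrays, 0.0256% (miR-455) to 2.3% (miRNA combination) of all probes were. With miR-455, 2 of 5 probes were at least 2-fold lower than it, against 0.25% of all probes, the bright UBE2L6 probe at -1.0 and HERC5 at -1.02.

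**Figure D3:**
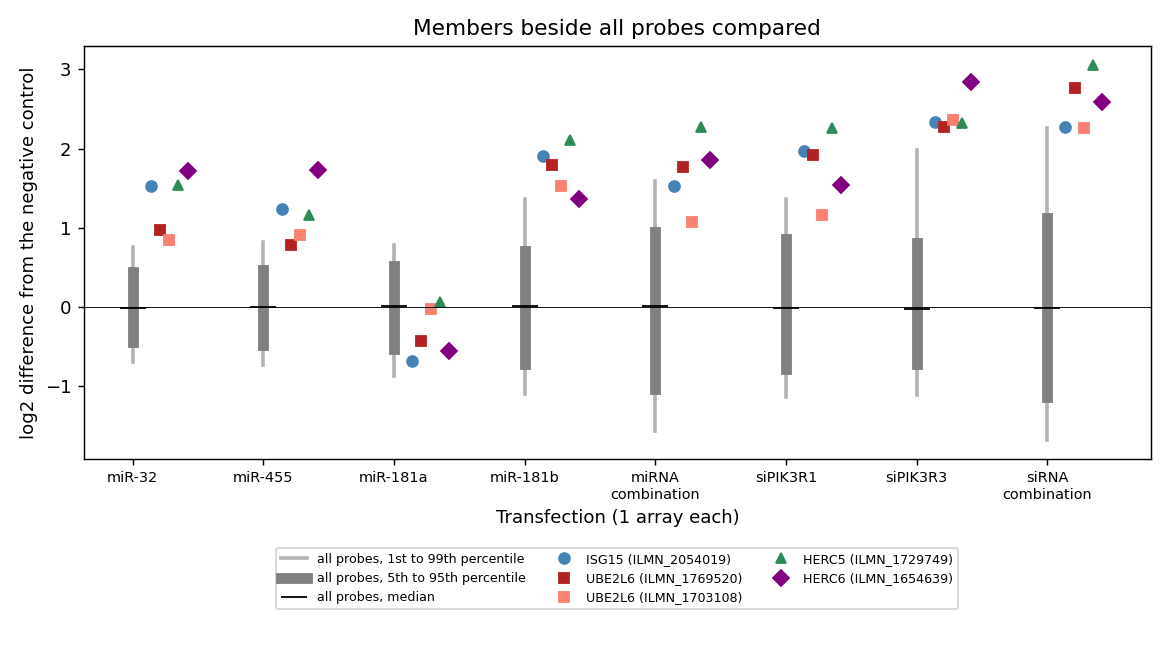
Log2 difference from the negative control of the 5 probes beside all probes compared in each of the 8 transfections, the latter drawn as median, 5th to 95th and 1st to 99th percentile. The members lie above the median of all probes in every transfection but miR-181a, where HERC5 at 0.06 is near it and ISG15 at -0.69 is far below.

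The single probes of HERC6 and HERC5, neighbours on the chromosome, moved by different amounts on the same array. A difference between their log2 differences from the control is nearly free of array scaling. It was 0.18 with miR-32, 0.57 with miR-455 and 0.52 with siPIK3R3, where HERC6 was further above the control than HERC5. It was -0.62 with miR-181a, -0.75 with miR-181b, -0.42 with the miRNA combination, -0.71 with siPIK3R1 and -0.47 with the siRNA combination. The signs were the same with an offset of 50, without background correction, with median scaling, in the authors' processed values and in raw signals. Every setting uses the same HERC6 and HERC5 readings of each single array, so agreement between settings adds no second measurement. The signs also share the error of the control readings. Mean raw signal of the arrays was 452, 468 and 392 with miR-32, miR-455 and siPIK3R3, where HERC6 was ahead. It was 418 with miR-181a, 361 with miR-181b, 270 with the miRNA combination, 343 with siPIK3R1 and 223 with the siRNA combination, where HERC5 was ahead. The part of array brightness in this split was not tested. The UBE2L6 probes also differed within arrays, with the dim minus the bright probe at -0.77 for siPIK3R1, -0.69 for the miRNA combination and -0.51 for the siRNA combination, against 0.09 for siPIK3R3 and 0.13 for miR-455. It was -0.27 for miR-181b, -0.13 for miR-32 and 0.41 for miR-181a. Without background correction the values for siPIK3R3 and miR-455 turned to -0.26 and -0.06, and for siPIK3R3 the value was -0.09 with an offset of 50 and -0.23 in raw signals. Probes of 1 gene thus lay as far apart, at -0.77, as those of HERC6 and HERC5 at their widest, at -0.75. With 1 probe for each, a difference between HERC6 and HERC5 cannot be told from one between probes.

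**Figure D4:**
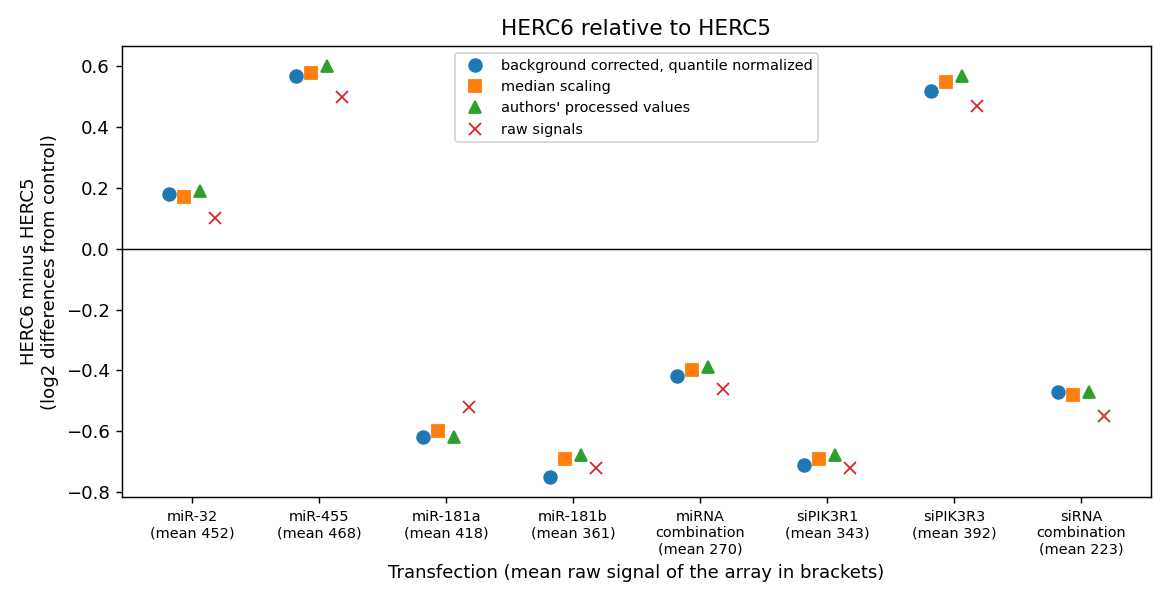
HERC6 minus HERC5, each as a log2 difference from the negative control, in the 8 transfections under 4 treatments of the data, with the mean raw signal of each array in brackets. Points for miR-32, miR-455 and siPIK3R3 are above 0 and the other 5 transfections are below it under each treatment drawn.

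Within the 7 arrays other than miR-181a and the negative control, HERC5 and the bright UBE2L6 probe had the highest correlation of any pair of members. Pearson's r over these 7 arrays was 0.98 for HERC5 with the bright UBE2L6 probe and 0.91 for ISG15 with it. It was 0.64 for ISG15 with HERC6, 0.62 for the bright UBE2L6 probe with HERC6 and 0.53 for HERC5 with HERC6. The dim UBE2L6 probe differed from the bright one here, with 0.81 for it with HERC6 and 0.74 for it with HERC5. The values are descriptions over few arrays that were normalized together.

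Other probes with the same pattern were ranked by Pearson's r with the mean centred profile of the 5 members over the 9 arrays, among 6972 probes detected on at least 3 arrays with a log2 range of at least 1. Since 2 arrays lie far below the other 7, this r is set mostly by that gap. It was over 0.95 for 62 probes, or 0.889%, and between 0.990 and 0.995 for the 10 most alike, whose r within the 7 high arrays was 0.96 to 0.99. The most alike probe, ILMN_1675640, had log2 levels of 9.29 with miR-32, 9.18 with miR-455, 6.12 with miR-181a, 9.99 with miR-181b, 10.25 with the miRNA combination, 9.73 with siPIK3R1, 11.20 with siPIK3R3 and 11.57 with the siRNA combination, against 6.80 with the control. The next, ILMN_1658247, differed from the control by 2.69, 2.48, -0.36, 3.59, 3.27, 3.25, 4.28 and 4.54 in the same order of transfections. Both were farther above the control than any member in the 7 transfections other than miR-181a. The files do not pair these probes with genes.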

How the data were processed

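Values came from the authors' deposited raw table, which gives each probe a signal intensity on a linear scale and a detection p-value per array, with no background correction recorded. The authors' processed table of intensity values correlates at 1.00 with the raw signals within each array and has an equal mean of 294 on all arrays; no source says how it was made. Arrays were assigned to groups from their labels.

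Raw intensities of all 9 arrays were background corrected through their detection p-values, quantile normalized and log2 transformed with neqc (limma 3.58.1, R 4.3.3; offset 16). Differences were taken in Python 3.11.15 (numpy 2.4.6, pandas 2.3.3) over probes detected at p under 0.01 on at least 1 of the 2 arrays, an undetected value being raised to the lowest detected one of its array. With 1 array per group, a 2-fold rule replaces a test. The code was tested on simulated data.

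The members and lists were chosen with earlier results of these data known. Named genes were the 5 member probes, listed genes and the 10 probes most like the members, of which 2 are named. The listed genes (other ISG15 enzymes, ubiquitin relatives, other ubiquitin-like systems, interferon signaling, cell type markers) could not be matched to probes and were not analysed here. Sequences are from RefSeq tables, and the motif shown in capitals was chosen with the windows in view.

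The settings tried instead were uncorrected background, an offset of 50, scaling by medians, the processed table floored at 16, a reference made of the 8 other arrays' median, detection at 0.05, probes without any detection filter, 1.5-fold calls and normalization that leaves out the combinations. Raw signals without normalization were added after seeing the data.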

Additional observations from a re-analysis of the deposited data

How the results depend on the processing

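The choice of reference moved the counts of member probes at least 2-fold higher. With the median of the 8 other arrays as reference, it was 0 for miR-181b, siPIK3R1, miR-455, miR-32 and the miRNA combination. The shares of all probes there were 0.777%, 2.26%, 0.0256%, 0.0625% and 2.3% in that order. The count was 2 for siPIK3R3, against 2.85%, and 3 for the siRNA combination, against 4.78%. Counts were lower with this reference since most of those 8 arrays are themselves high. Under that reference ISG15 turned to -0.19 with miR-32, -0.48 with miR-455 and -0.19 with the miRNA combination, HERC5 to -0.64 with miR-32 and -1.02 with miR-455, and HERC6 to -0.36 with miR-181b and -0.18 with siPIK3R1. The bright and dim UBE2L6 probes turned to -0.81 and -0.27 with miR-32 and to -1.0 and -0.2 with miR-455, and HERC5 to -2.12 with miR-181a. The count in miR-32 was 5 with median scaling, against 1.39% of all probes, and 5 at 1.5-fold, against 2.27%. In miR-455 it was 5 at 1.5-fold, against 2.52%. UBE2L6 lay close to the threshold in both. In raw signals without normalization, a setting added after seeing the data, the count in the miRNA combination was 3, against 0.513% of all probes. Of 78 counts under alternatives 57 equalled the main count. The dim UBE2L6 probe took the miRNA combination from 5 to 4 without background correction, with an offset of 50 and with median scaling. The shares of all probes were 1.85%, 2.76% and 2.87%. It took siPIK3R1 to 4 without background correction, with median scaling and in raw signals, against 1.27%, 1.06% and 0.576%. Of 350 differences of single members under alternatives, 299 were within 0.5 of the main one on the log2 scale and 51 were not, 40 with the median reference and 11 in raw signals. The sign changed in 15, the 12 given above and 3 for the dim UBE2L6 probe with miR-181a, at -0.02 in the main setting. Detection at 0.05 and the absence of a detection filter each gave 40 of the 350 differences and 8 of the 78 counts. Those values could not depart from the main ones, because every member was detected on every array. The combinations have no value in normalization without them. No paired analysis was possible because a group is a single array. All 5 probes were detected on every array, but the dim UBE2L6 probe depends on the handling of background, which moved it to 1.95 with siPIK3R3 without correction, against 2.36 with it. The single array per group limits every value.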
